A study of Mus musculus with 14 samples.

Results

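The genes described here write or support methylation of histone H3 at lysine 4 (H3K4) and remove methylation of lysine 27 (H3K27): 6 H3K4 methyltransferases (Kmt2a, Kmt2b, Kmt2c, Kmt2d, Setd1a and Setd1b), 2 H3K27 demethylases (Kdm6a and Kdm6b) and 2 subunits that the methyltransferase complexes share (Wdr5 and Ash2l). They were chosen by name, 10 of the 24984 gene symbols counted, and all 10 passed the filter on low counts in both experiments. RNA was sequenced in bulk from c-KIT-positive differentiating spermatogonia, male germ cells on the way to meiosis, sorted by flow cytometry from testes of C57BL/6J mice. Each of the 14 libraries was taken as 1 animal, since animals and libraries are given in equal numbers.

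In the deletion experiment, 2 control animals (Rosa26-CreERT2; Cbx2[Flox/+]) received 3 injections of 200 µL of corn oil, and 2 deleted animals (Rosa26-CreERT2; Cbx2[Flox/Δ]) received the same volume with tamoxifen at 20 mg/mL. Both groups carry the tamoxifen-activated Cre recombinase and a floxed allele. Genotype and drug differ together between them, so the effects of each cannot be told apart. Cre driven from Rosa26 is expressed broadly, so recombination was not restricted to germ cells. In the 23KRA experiment, 5 wild-type animals (Cbx2[+/+]) were set against 5 animals homozygous for an allele whose lysines and arginines in the CaPS domain are replaced by alanine (Cbx2[23KRA/23KRA]). The labels do not give ages.

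Cbx2 is a chromodomain subunit of Polycomb repressive complex PRC1, which binds chromatin that carries H3K27 methylation and helps to keep developmental genes silent. Trithorax-group proteins were found as its genetic opponents. Their descendants in mammals are the KMT2 (MLL) and SET1 enzymes, which methylate H3K4 in complexes known as COMPASS, and the demethylases KDM6A (UTX) and KDM6B (JMJD3), which take the Polycomb mark off. KDM6A is itself a subunit of the KMT2C and KMT2D complexes. In male germ cells many developmental promoters carry H3K4 and H3K27 methylation at the same time, and Kmt2b is known for the H3K4 mark at such promoters in spermatogonia.

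The deletion libraries held 28169990 to 31166500 counts with 19822 to 19976 genes detected. The 23KRA libraries, made with another kit, held 14562564 to 19814511 counts and 14958 to 17330 genes, and their libraries varied more over all genes (common biological coefficient of variation 0.393 against 0.0988). Cbx2 itself was at 93.9 and 97.7 CPM (read counts scaled by library size) in the controls and 78.5 and 86.5 in the deleted libraries. The deleted libraries were lower without overlap, but the log2 fold change of -0.21 (SE 0.12) did not pass the test (edgeR adjusted p = 0.971). Which exons were floxed is not stated and reads were counted over all of them, so this value is a weak check of the deletion. Markers of differentiating spermatogonia summed to 1544 to 2136 CPM over the 14 libraries, all 8 of them detected. Markers of spermatids summed to 2279 to 2954 CPM in the deletion libraries and to 216 to 986 in the 23KRA libraries. Mast cells, which also carry c-KIT, gave at most 5.85 CPM over 6 markers. Sertoli cell markers summed to 101 to 107 CPM in the deletion libraries and to 33.6 to 64.6 in the 23KRA libraries. Macrophage markers summed to 47.0 to 92.9 CPM in the former, highest in deleted replicate 1, and to 8.18 to 138 in the latter, highest in wild-type replicate 3.

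RefSeq (GRCm38.p6) gave a promoter for 6 of the 10 genes. The 240 bases before the start site, written 5′ to 3′ on the gene's strand, are those of Kmt2a (chr9:44881300-44881539, minus strand), Kmt2c (chr5:25498794-25499033, minus strand), Kmt2d (chr15:98871216-98871455, minus strand) and the core subunit Wdr5 (chr2:27514897-27515136, plus strand). Capitals mark CpG dinucleotides, the sites of DNA methylation and of binding by the CXXC domains of KMT2A and KMT2B.
Kmt2a: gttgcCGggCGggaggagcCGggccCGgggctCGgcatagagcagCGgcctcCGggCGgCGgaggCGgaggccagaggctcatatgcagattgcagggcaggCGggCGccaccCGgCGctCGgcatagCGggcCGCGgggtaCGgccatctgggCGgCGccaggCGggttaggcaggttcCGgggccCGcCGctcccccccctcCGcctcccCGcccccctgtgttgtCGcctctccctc
Kmt2c: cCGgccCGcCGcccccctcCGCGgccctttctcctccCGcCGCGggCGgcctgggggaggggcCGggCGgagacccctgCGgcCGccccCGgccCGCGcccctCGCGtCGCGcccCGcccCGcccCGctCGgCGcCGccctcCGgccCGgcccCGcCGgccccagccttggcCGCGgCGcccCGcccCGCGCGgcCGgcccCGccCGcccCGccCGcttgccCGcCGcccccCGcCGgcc
Kmt2d: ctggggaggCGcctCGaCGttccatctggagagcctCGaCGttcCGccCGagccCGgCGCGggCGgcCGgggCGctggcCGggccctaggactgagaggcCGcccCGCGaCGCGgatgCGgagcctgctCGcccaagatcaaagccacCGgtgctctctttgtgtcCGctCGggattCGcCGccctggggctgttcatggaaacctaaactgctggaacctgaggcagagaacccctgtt
Wdr5: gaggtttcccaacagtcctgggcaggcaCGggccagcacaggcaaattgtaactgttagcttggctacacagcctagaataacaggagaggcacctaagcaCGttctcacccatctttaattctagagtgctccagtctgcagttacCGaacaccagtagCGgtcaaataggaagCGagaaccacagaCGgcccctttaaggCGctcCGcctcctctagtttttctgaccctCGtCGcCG

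The Kmt2c window held 46 CpGs, more than 99.8% of 32851 RefSeq promoters of the same length, whose median was 5. Kmt2a held 28, Kmt2d 26 and Setd1a 25, more than 93.4%, 91.6% and 90.5% of promoters. In the Setd1a window, not printed, 209 of the 240 bases are annotated exon. Kdm6a (15 CpGs) and Wdr5 (11) lay nearer the middle, above 74.3% and 65.9%. The GC box GGGCGG, searched on both strands, was found 12 times in Kmt2c, 4 times each in Kmt2a and Kmt2d, once in Kdm6a and not in Setd1a or Wdr5, against 31.3% of all promoters that hold it. A CCAAT box (CCAAT), an ETS site (CCGGAAG), an NRF1 site (GCATGCGC) and a YY1 site (AAGATGGC), searched on both strands, were in none of these windows, and in 33.0%, 6.20%, 2.05% and 1.5% of all promoters. These are counts of letters and say nothing of binding.

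In the libraries from Cbx2-deleted animals the 10 genes were at 0.761 to 1.04 times their control level. None of the 10 passed the test in the deletion experiment (edgeR's quasi-likelihood test, adjusted p under 0.05), where 2 of 16725 genes did, 0.0120%. Those were Cyp17a1, a steroid enzyme of Leydig cells, which fell (log2 fold change -1.86, SE 0.26, edgeR adjusted p = 0.00315), and Dcn, a matrix gene named after its value was seen, which rose. At an unadjusted p under 0.05 there were 3, Kmt2a, Kmt2d and Setd1a, all lower in the deleted libraries, beside 4.74% of all genes tested at that threshold and 2.69% that were lower. DESeq2 and limma-voom each called 0 members (0.00598% of all genes in each) and put 2, Kmt2a and Setd1a, at an unadjusted p under 0.05, beside 2.39% and 4.79% of all genes. Each called 1 gene, Cyp17a1, so Dcn did not pass by either. The log2 fold change was below 0 for 8 of 10 (9 with the GC offset described further on), with 51.0% of all genes below 0. The median was -0.13 for the 10 genes and -0.0044 for all genes tested.

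With the 23KRA allele none of the 10 passed either, by edgeR, DESeq2 or limma-voom, nor at an unadjusted p under 0.05 by any of the 3. The background by edgeR was 0% of 14208 genes at the adjusted threshold and 3.04% at the unadjusted one (1.36% lower in the mutants). DESeq2 and limma-voom gave 0% and 0% at the adjusted threshold, and 3.69% and 3.78% at the unadjusted one. Of the 10, 7 were below 0 (6 to 9 under other settings), with 49.2% of all genes below 0, and the median was -0.06 against 0.0034 for all genes. Whether the change in the deletion experiment differed from that with the 23KRA allele was tested as an interaction over all 14 libraries. Genotype and tamoxifen differ together in the deletion, so the interaction does not compare the alleles alone. Its shared spread covers experiments with coefficients of variation of 0.0988 and 0.393 over all genes, so a lack of passing genes does not show that the changes were alike. No member and 0% of 17227 genes passed there (0.650% at an unadjusted p under 0.05, no member among them, and no member by DESeq2 or limma-voom). Single members need not follow these coefficients. The SD of Kmt2a was 16.2 around a mean of 74.4 CPM in the controls and 48.3 around 556 CPM in wild-type animals. For Kdm6a it was 2.34 around 81.5 CPM and 9.65 around 60.3 CPM.

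**Figure D1:**
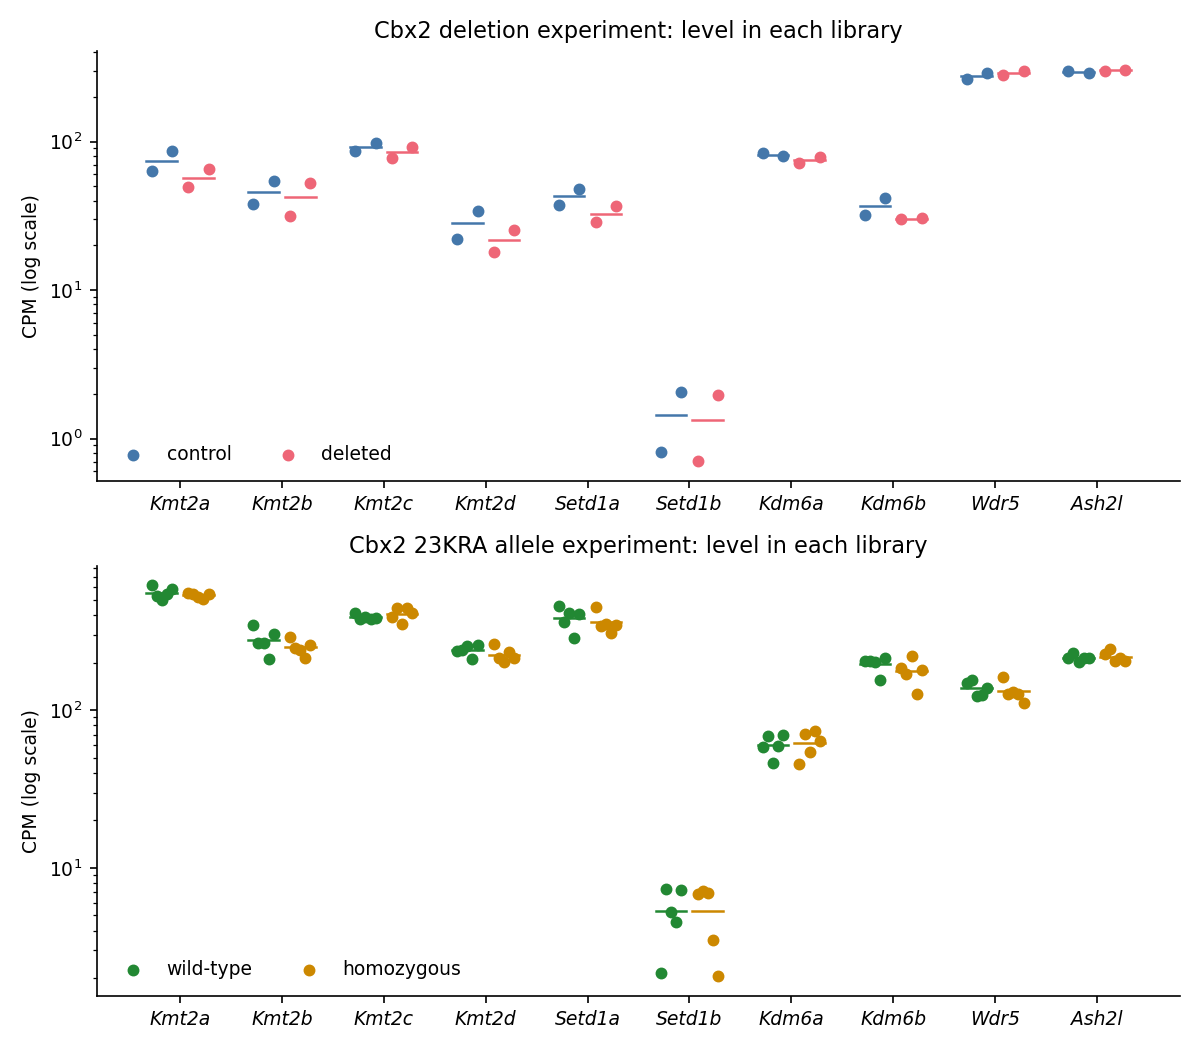
CPM of the 10 genes (log axis) in each library, one point per library and a line at each group's mean, for the deletion experiment (top) and the 23KRA experiment (bottom). In the deletion experiment Kmt2a, Kmt2b, Kmt2d and Setd1b vary as much between the libraries of a group as between groups, while Wdr5 and Ash2l lie together; in the 23KRA experiment the points of both groups overlap for every gene.

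Kmt2a (chr9:44803355-44881296, GRCm38) encodes MLL1, the founding mammalian Trithorax enzyme, which keeps Hox genes active. Its level was 62.9 and 85.8 CPM in the controls and 49.1 and 65.03 CPM in the deleted libraries. Both deleted libraries were below control replicate 2, but deleted replicate 2 was above control replicate 1, so the groups overlapped. The fold was 0.767 (95% interval 0.623 to 0.943), a log2 fold change of -0.38 (SE 0.15), with an unadjusted p of 0.0141 and an edgeR adjusted p of 0.971. Which library is left out decides this value: it ranged from -0.14 without control replicate 2 to -0.60 without deleted replicate 2, and in that last fit it passed (edgeR adjusted p = 0.0200), with the lone deleted library assumed to vary like the controls. Among the 23KRA libraries Kmt2a was at 619.8, 526, 500.2, 545 and 590.0 CPM in wild-type replicates 1 to 5 and at 556, 543, 519, 505 and 545 CPM in homozygous replicates 1 to 5, the order kept for the other genes. The homozygous range lay inside the wild-type range, with a log2 fold change of -0.06 (95% interval -0.21 to 0.09).

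Kmt2b (chr7:30568858-30588726), which encodes MLL2, the close paralog of MLL1, was at 37.9 and 53.8 CPM in the controls and at 31.5 and 52.8 CPM in the deleted libraries. The replicate 1 libraries of both groups were low and the replicate 2 libraries high, so the spread inside each group exceeded the difference between groups (log2 fold change -0.12, SE 0.18). It turned to 0.15 without control replicate 2 and to 0.21 without deleted replicate 1. In wild-type animals Kmt2b was at 349, 266, 266, 212 and 305 CPM and in homozygous animals at 289.9, 247, 239, 215 and 260.1 CPM. The difference of -0.16 on the log2 scale (95% interval -0.38 to 0.07) was the furthest below 0 of the 10 genes in that experiment, and the groups overlapped over most of their range.

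Kmt2c and Kmt2d encode MLL3 and MLL4, the enzymes of H3K4 monomethylation at enhancers. Kmt2c (chr5:25271798-25498783) was at 86.8 and 97.1 CPM in the controls and at 77.0 and 92.1 CPM in the deleted libraries, with a log2 fold change of -0.12 (SE 0.12). Kmt2d (chr15:98831669-98871204) was at 21.9 and 34.3 CPM in the controls and at 18.1 and 25.5 CPM in the deleted libraries, with a log2 fold change of -0.37 (SE 0.18, unadjusted p 0.0497, edgeR adjusted p = 0.971). Both pairs of groups overlapped. The Kmt2d difference rested on control replicate 2: without it the log2 fold change was -0.0077, and without deleted replicate 1 it was -0.14. Kmt2c in the 23KRA experiment was at 415, 379, 390.0, 378 and 382 CPM in wild-type and at 389, 444, 351, 443 and 413 CPM in homozygous animals (log2 fold change 0.07, SE 0.07). Kmt2d was at 239, 239, 256, 209.7 and 261 CPM against 262, 214, 202, 233 and 214 CPM (-0.10, SE 0.09). The paralogs thus stood on opposite sides of 0 there, with both intervals covering 0.

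Setd1a (chr7:127776670-127800122), a SET1 enzyme of bulk H3K4 trimethylation, was at 37.6 and 48.2 CPM in the controls and at 28.7 and 36.6 CPM in the deleted libraries. Both deleted libraries were below both controls, by a narrow margin. The fold was 0.761 (95% interval 0.618 to 0.938), a log2 fold change of -0.39 (SE 0.15, unadjusted p 0.0125, edgeR adjusted p = 0.971), the furthest below 0 of the 10 genes. Without control replicate 2 it was -0.20, and without deleted replicate 1 it was -0.23. Wild-type animals of the 23KRA experiment had Setd1a at 459.9, 361, 416, 285 and 408 CPM and homozygous animals at 448, 342, 349.7, 309.7 and 348 CPM, and the ranges overlapped widely (log2 fold change -0.10, SE 0.11). In the GENCODE annotation 51.8% of its exon bases (3523) are shared with Gm49388, a gene on the same strand that is not among the symbols counted, so how reads were shared out there is unknown.

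Setd1b (chr5:123142193-123168629), the paralog of Setd1a, was the lowest of the 10 genes in every library. It had 20 to 65 counts per library in the deletion experiment, 0.815 and 2.07 CPM in the controls and 0.703 and 1.95 CPM in the deleted libraries. The log2 fold change was -0.13 with a 95% interval from -1.03 to 0.77, and the libraries of each group lay further apart than the group means. The 23KRA experiment gave 36 to 140 counts per library, 2.17, 7.35, 5.28, 4.56 and 7.24 CPM in wild-type and 6.88, 7.19, 6.89, 3.51 and 2.06 CPM in homozygous animals. Both groups held high and low libraries, and their means were 5.32 and 5.31 CPM. The larger SET1 family difference was between the paralogs themselves: per kilobase of exon, Setd1a stood 61.7-fold (SD 28.6, n = 2) above Setd1b in the controls and 163-fold (SD 121, n = 5) in wild-type animals.

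**Figure D2:**
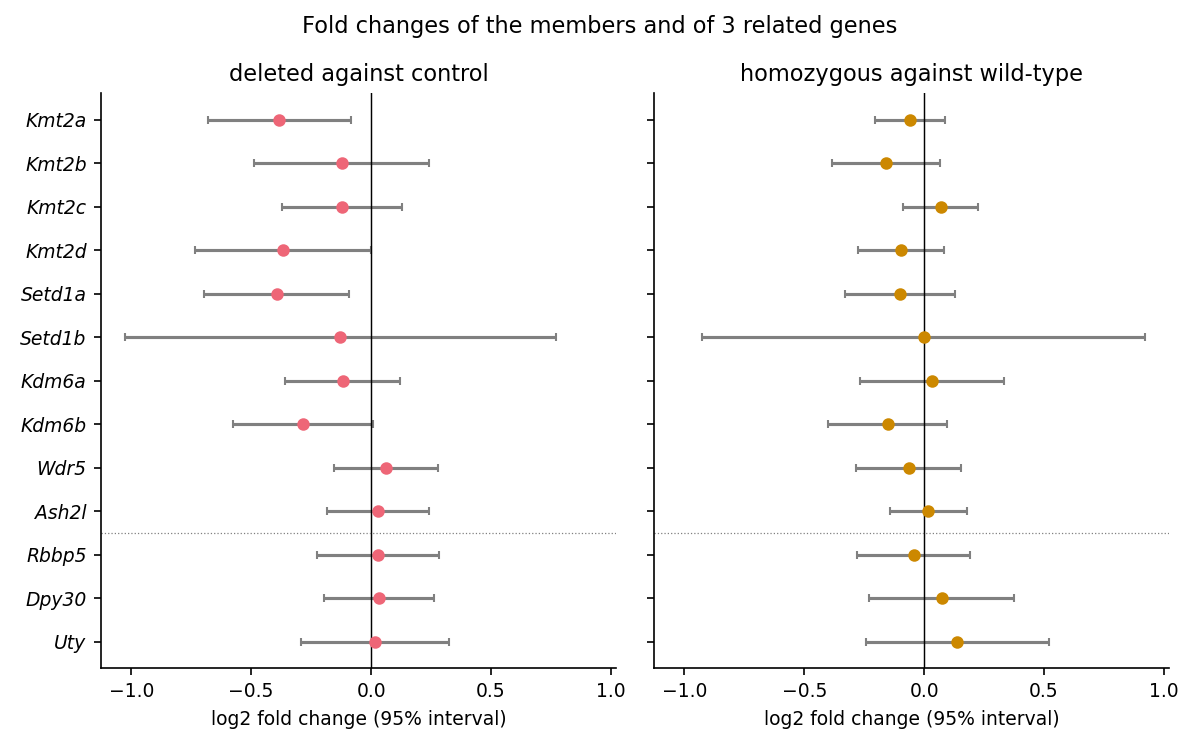
Log2 fold changes with 95% intervals for the 10 genes and, below the dotted line, Rbbp5, Dpy30 and Uty, in deleted against control (left) and homozygous against wild-type libraries (right). In the deletion only the intervals of Kmt2a, Kmt2d and Setd1a end below 0, and that is before adjustment over 16725 genes; in the 23KRA experiment every interval covers 0, and that of Setd1b is the widest in both.

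Kdm6a (chrX:18162575-18279936) encodes the X-linked H3K27 demethylase UTX. It was at 83.1 and 79.8 CPM in the controls and at 71.8 and 78.4 CPM in the deleted libraries. The deleted libraries were lower without overlap, by a narrow margin at the closest, and the log2 fold change was -0.12 (SE 0.12). With the 23KRA allele and its controls it was at 58.2, 68.3, 45.9, 58.9 and 70.1 CPM in wild-type and at 45.5, 71.0, 54.3, 73.4 and 64.0 CPM in homozygous animals, nearly the same range (0.03, SE 0.14).

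Kdm6b (chr11:69398508-69413675) encodes JMJD3, the inducible demethylase. It was at 31.8 and 41.9 CPM in the controls and at 29.9 and 30.7 CPM in the deleted libraries, which agreed closely and were lower without overlap. The log2 fold change was -0.28 (SE 0.14, 95% interval -0.58 to 0.01), and without control replicate 2 it was -0.07. Setd1a, Kdm6a and Kdm6b were the 3 of 10 genes without overlap in the deletion, all lower, while 17.5% of all genes tested were lower without overlap and 15.6% higher. Kdm6b in the 23KRA experiment was at 205, 204, 202, 154 and 214 CPM in wild-type and at 185, 169, 221, 126 and 180.3 CPM in homozygous animals (-0.15, SE 0.12). None of the 10 genes was without overlap there, with 0.274% of all genes lower and 0.436% higher.

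Uty, the Y-linked paralog of Kdm6a, was at 45.2 and 31.4 CPM in the controls and at 40.8 and 36.6 CPM in the deleted libraries, so the groups overlapped and the means were nearly equal (log2 fold change 0.02, SE 0.15). In the 23KRA experiment it was at 39.9, 40.9, 23.7, 48.5 and 37.9 CPM in wild-type and at 27.1, 45.3, 44.9, 45.6 and 47.6 CPM in homozygous animals (0.14, SE 0.18). Per kilobase of exon Kdm6a was 2.56-fold (SD 0.58, n = 2) above Uty in the controls and 1.90-fold (SD 0.34, n = 5) in wild-type animals. The paralogs are similar in sequence and the treatment of reads that fit both is not given in the sources used here, so their ratio is uncertain.

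Wdr5 and Ash2l, with Rbbp5 and Dpy30, form the core that all the KMT2 and SET1 enzymes need for activity. Wdr5 (chr2:27515157-27536535) was at 266 and 287 CPM in the controls and at 280 and 298 CPM in the deleted libraries, with overlap (log2 fold change 0.06, 95% interval -0.16 to 0.28). Ash2l (chr8:25815996-25847694) was at 301 and 289.6 CPM in the controls and at 300.3 and 302 CPM in the deleted libraries (0.03, 95% interval -0.19 to 0.24). The 4 Ash2l values lay closer together than those of any other of the 10 genes. Among the 23KRA libraries Wdr5 was at 148, 155, 123, 124 and 137 CPM in wild-type and at 163, 126, 131, 127 and 110.3 CPM in homozygous animals (-0.06, SE 0.10). Ash2l was at 215, 231, 203, 214 and 215 CPM against 226, 243, 205, 214 and 204 CPM (0.02, SE 0.08). Both genes overlapped between groups over most of their range. Of the other core genes, Rbbp5 had log2 fold changes of 0.03 with the deletion and -0.04 with the 23KRA allele, and Dpy30 0.03 and 0.07.

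As an interaction (the deletion's log2 fold change minus that of 23KRA), Kmt2a had the smallest p of the 10 genes, with a difference of -0.34 (95% interval -0.70 to 0.02, unadjusted p 0.0647, edgeR adjusted p = 1). Setd1a differed by -0.31, Kmt2d by -0.29 and Kmt2c by -0.21, each with an interval that covers 0. The interval of Kmt2b ran from -0.55 to 0.59 and that of Setd1b from -2.05 to 1.77.

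The values of the deletion libraries moved with replicate number and base composition. In Kmt2a, Kmt2b, Kmt2c, Kmt2d, Setd1a, Setd1b, Kdm6b and Wdr5, the replicate 1 library of each group was below the replicate 2 library of that group. Of these, Kmt2b, Kmt2d, Setd1a, Setd1b and Kdm6b have transcripts with 57.0% to 59.6% GC, a GC content above 86.5% to 94.4% of the genes tested. Ash2l (44.0%) and Kdm6a (42.5%) are below most genes. In the 5% of genes richest in GC, the median log2 deviation from the gene's own mean was 0.15 in control replicate 2 and -0.10 in deleted replicate 1, with -0.05 in control replicate 1 and 0.02 in deleted replicate 2.

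The members' fold changes in the deletion were also set beside those of genes of like GC content, as a description. Kmt2a, Setd1a and Kmt2d were already known to be low in these same libraries, so their places are not separate support. Kmt2a, with 50.6% GC, had a log2 fold change 0.36 below the median of its bin, lower than all but 7.74% of the 827 genes there. Setd1a was below all but 7.62% of its bin and Kmt2d below all but 10.02%. Kdm6a lay at 15.7% of its bin, Kdm6b at 15.8%, Kmt2c at 23.3%, Setd1b at 39.1%, Kmt2b at 41.2%, Ash2l at 45.4% and Wdr5 at 70.1%. With GC content as an offset in the fit, an alternative chosen after the data had been seen, the log2 fold change was -0.36 for Kmt2a, -0.31 for Setd1a, -0.27 for Kmt2d, -0.18 for Kdm6b and -0.03 for Kmt2b, and no member passed. Spermatid markers summed to 2626.5 and 2954 CPM in the controls and to 2279 and 2613 CPM in the deleted libraries. Of these markers 6 of 6 were below 0, with none passing. In 23KRA, where 7 of the 10 genes were below 0, 6 of 6 were below 0 too, with none passing and sums of 259 to 972 CPM in wild-type and 216 to 986 CPM in homozygous animals. Leydig cell markers summed to 22.2 and 17.6 CPM in the controls and to 12.6 and 14.1 CPM in the deleted libraries, without overlap, with 5 of 6 below 0 and Cyp17a1 alone passing. Other lists were mixed in the deletion: 6 of 8 macrophage, 5 of 8 differentiating and 4 of 8 undifferentiated spermatogonial markers were above 0. So were 3 of 6 Sertoli, 3 of 5 endothelial, 1 of 4 myoid and 0 of 1 mast cell markers tested. Spermatids were not the only one-sided list in 23KRA. There 4 of 4 endothelial, 3 of 3 macrophage and 6 of 8 differentiating spermatogonial markers tested were below 0. Above 0 were 2 of 2 Leydig, 2 of 2 myoid, 1 of 1 mast cell, 3 of 6 Sertoli and 4 of 7 undifferentiated spermatogonial markers. The part of GC content and of these cell types in the members' values was not tested.

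**Figure D3:**
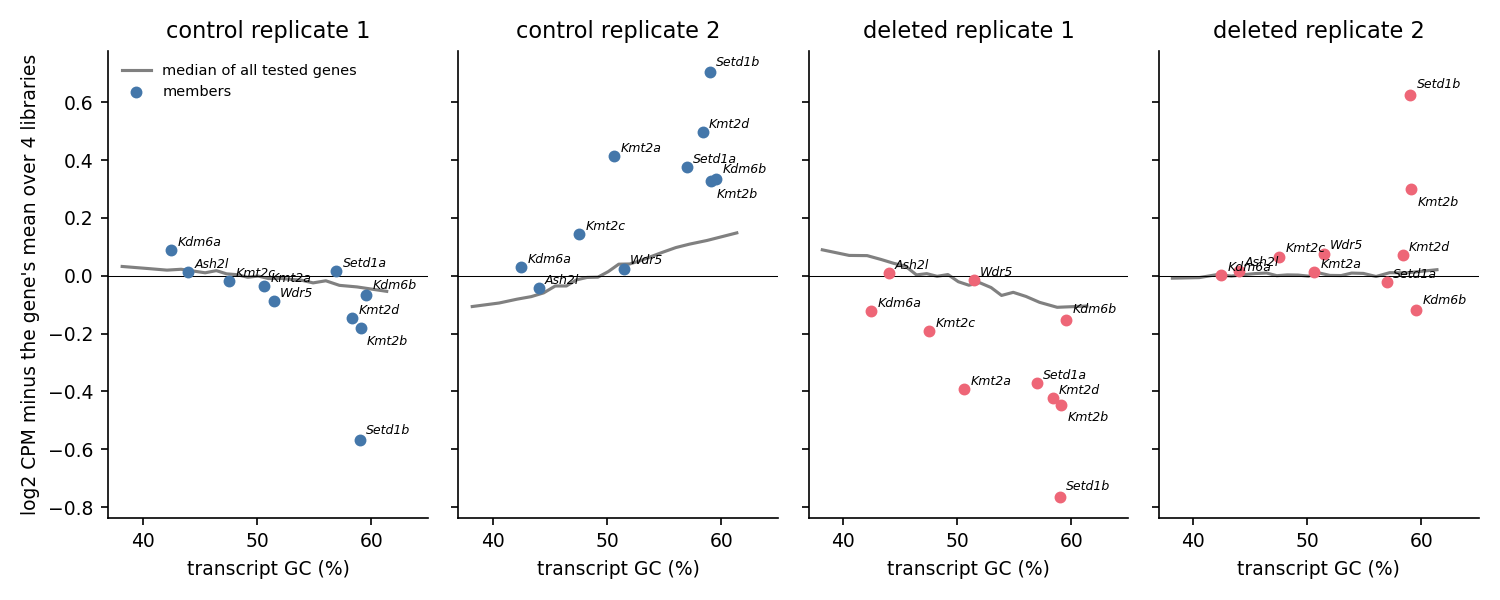
Log2 CPM of each of the 10 genes minus its mean over the 4 deletion libraries, against the GC content of its transcripts (%), one panel per library, with the median of all tested genes in 20 bins of GC content as a grey line. The GC-rich enzyme genes lie above the line in control replicate 2 and below it in deleted replicate 1, and Ash2l and Wdr5 stay near 0 in each library.

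The order of levels among the 10 genes was taken per kilobase of exon. In the controls Wdr5 was highest at 76.9 CPM per kb (SD 4.24, n = 2), then Ash2l at 32.9 (SD 0.87) and Kdm6a at 9.72 (SD 0.28). Setd1a at 6.32, Kdm6b at 5.30, Kmt2b at 4.78, Kmt2c at 4.53 and Kmt2a at 4.46 followed, and neighbours among these 5 did not differ beyond their spread. Kmt2d at 1.41 and Setd1b at 0.119 were lowest, each apart from the gene above it. In the deleted libraries the order was the same but for Kmt2b and Kdm6b, which changed places.

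In wild-type animals of the 23KRA experiment the order was another. Setd1a was highest at 56.8 CPM per kb (SD 9.79, n = 5), followed by Wdr5 at 38.3, Kmt2a at 33.4, Kmt2b at 29.1, Kdm6b at 28.2 and Ash2l at 24.0, and the ranges of neighbours in this run overlapped. Within each of the 5 libraries, though, Setd1a was above Wdr5, Wdr5 above Kmt2a and Kmt2a above Kmt2b. Kmt2c at 19.2, Kmt2d at 12.1, Kdm6a at 7.19 and Setd1b at 0.441 were each apart from the gene above. The place of Ash2l depends on the length used: with its longest transcript (3702 bases) in place of its exon union (8969 bases) it rose from place 6 to place 2, and it kept place 2 in the controls. By the longest transcripts Kmt2c moved from place 7 to place 5 in the controls. In wild-type animals Kmt2c then overlapped Kdm6b above it, and Kdm6a overlapped Kmt2d, so these were no longer apart.

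The demethylases changed places between the experiments. Per kilobase Kdm6a was 1.87-fold (SD 0.42, n = 2) the level of Kdm6b in the controls, and 1.99- and 2.12-fold in the 2 deleted libraries. In wild-type animals the ratio was 0.258 (SD 0.048, n = 5) and in homozygous animals 0.307 (SD 0.116, n = 5), with all 10 libraries between 0.189 and 0.482. Thus UTX transcripts led in each of the 4 deletion libraries, and JMJD3 transcripts in each of the 10 libraries of the other experiment. By exon union Wdr5 was above Ash2l in all 14 libraries, at 1.29- to 2.47-fold. With the longest transcripts it stayed above in the deletion experiment, but the mean of Ash2l was above that of Wdr5 in wild-type (58.3 against 47.6 CPM per kb) and homozygous animals (59.0 against 45.5). Kmt2c stood above Kmt2d in all 14, 2.78- to 4.19-fold in the deletion and 1.44- to 2.04-fold in the 23KRA libraries.

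**Figure D4:**
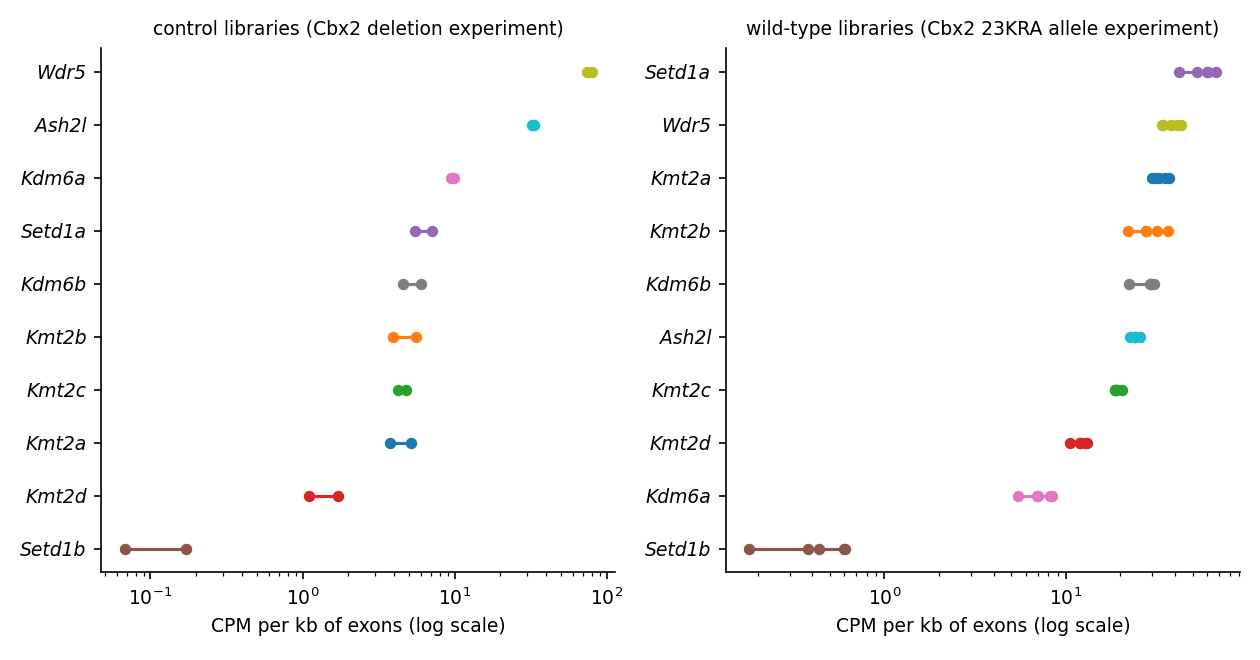
CPM per kilobase of exon (log axis) of the 10 genes in the control libraries (left) and the wild-type libraries of the 23KRA experiment (right), each panel ordered by its own mean, one point per library and a line over the range. Wdr5 and Ash2l lead on the left, and Setd1a, Wdr5 and Kmt2a on the right, while Kdm6a falls from place 3 to place 9; the kits differ between the panels.

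The 2 experiments also differed in level, for 7 of the 8 enzyme genes in the same direction. The wild-type level was 8.99 times the control level for Setd1a, 8.58 for Kmt2d, 7.48 for Kmt2a, 6.09 for Kmt2b, 5.31 for Kdm6b, 4.23 for Kmt2c and 3.69 for Setd1b, ratios above those of 95.7% to 99.2% of 13979 genes. For Kdm6a it was 0.740, for Ash2l 0.731 and for Wdr5 0.497, where the median of all genes was -0.43 on the log2 scale. The ratio rose with exon length over all genes, from a median of -1.32 (log2) in 2250 genes under 2 kb to 0.93 in 772 genes over 12 kb, and was flat over GC content, from -0.33 to -0.50. Exon length was 9.60 to 20.3 kb for the 4 KMT2 genes and Setd1b, 8.97 kb for Ash2l and 8.38 kb for Kdm6a. It was 6.95 kb for Kdm6b, 6.79 kb for Setd1a and 3.60 kb for Wdr5. Median log2 ratios were -0.75 in genes of 2 to 4 kb, -0.02 at 6 to 8 kb and 0.27 at 8 to 12 kb. The 7 higher enzyme genes were at 1.88 (Setd1b) to 3.17 (Setd1a) on that scale. How far exon length enters the members' ratios was not tested. Controls were Rosa26-CreERT2; Cbx2[Flox/+] animals injected with oil, and wild-type animals were Cbx2[+/+]. Spermatid markers summed to 2626.5 to 2954 CPM in the controls and to 259 to 972 CPM in wild-type animals. Library kit, genotype, injection, cell content, animals and sorting thus differ together between the experiments. They cannot be told apart, so these ratios were not tested.

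Partner genes were read from lists of the same pathway, and no gene on them passed in either experiment (edgeR). The 5 subunits listed for SET1 complexes had a median log2 fold change of -0.02 in the deletion and 0.03 in 23KRA, the 4 listed for the MLL1 and MLL2 complexes 0.03 and -0.10, and the 3 listed for the MLL3 and MLL4 complexes -0.03 and -0.08. Bod1l, a SET1 complex subunit, had -0.21 (SE 0.12) in the deletion and 0.03 in 23KRA. Hcfc1, a scaffold shared by SET1 and MLL complexes and counted in both lists, had -0.02 and -0.01. Psip1, which tethers MLL1 and menin to chromatin, had 0.11 and -0.12. Among subunits of the enhancer complexes, Ncoa6 had -0.09 and -0.08 and Paxip1 0.02 and -0.22 (SE 0.12).

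Of 7 other SET domain genes linked to H3K4 or Trithorax, 7 were tested in the deletion and 6 in 23KRA, and 1 had an unadjusted p under 0.05 in the deletion. That gene was Kmt2e (MLL5), with a log2 fold change of -0.23 (SE 0.11, unadjusted p 0.0482, edgeR adjusted p = 0.971) and -0.02 in 23KRA. Ash1l, a Trithorax-group methyltransferase of H3K36, had -0.22 (SE 0.11) and 0.03. The opposing enzymes had no gene past the test: the 6 H3K4 demethylases had medians of 0.05 and -0.04, with -0.04 and -0.03 for Kdm5a and 0.01 and -0.05 for Kdm5b. The 4 core genes of the H3K27 methyltransferase PRC2 had medians of 0.0087 and 0.08. Among them Suz12 had -0.03 and 0.0025 and Eed 0.14 and 0.08.

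The list of 6 H3K27 acetyltransferases and Trithorax-group remodelers was the only one with every gene below 0 in both experiments, with medians of -0.20 and -0.08 beside -0.0044 and 0.0034 over all genes. The most abundant were Crebbp, the acetyltransferase CBP, with -0.25 (SE 0.13) in the deletion and -0.03 (SE 0.08) in 23KRA, and Smarca4, the BRG1 remodeler ATPase, with -0.17 (SE 0.12) and -0.14 (SE 0.09). Crebbp was -0.05 and Smarca4 -0.0031 in the least extreme of the fits that left out 1 deletion library. None of the 6 had an unadjusted p under 0.05 in either experiment (edgeR).

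**Figure D5:**
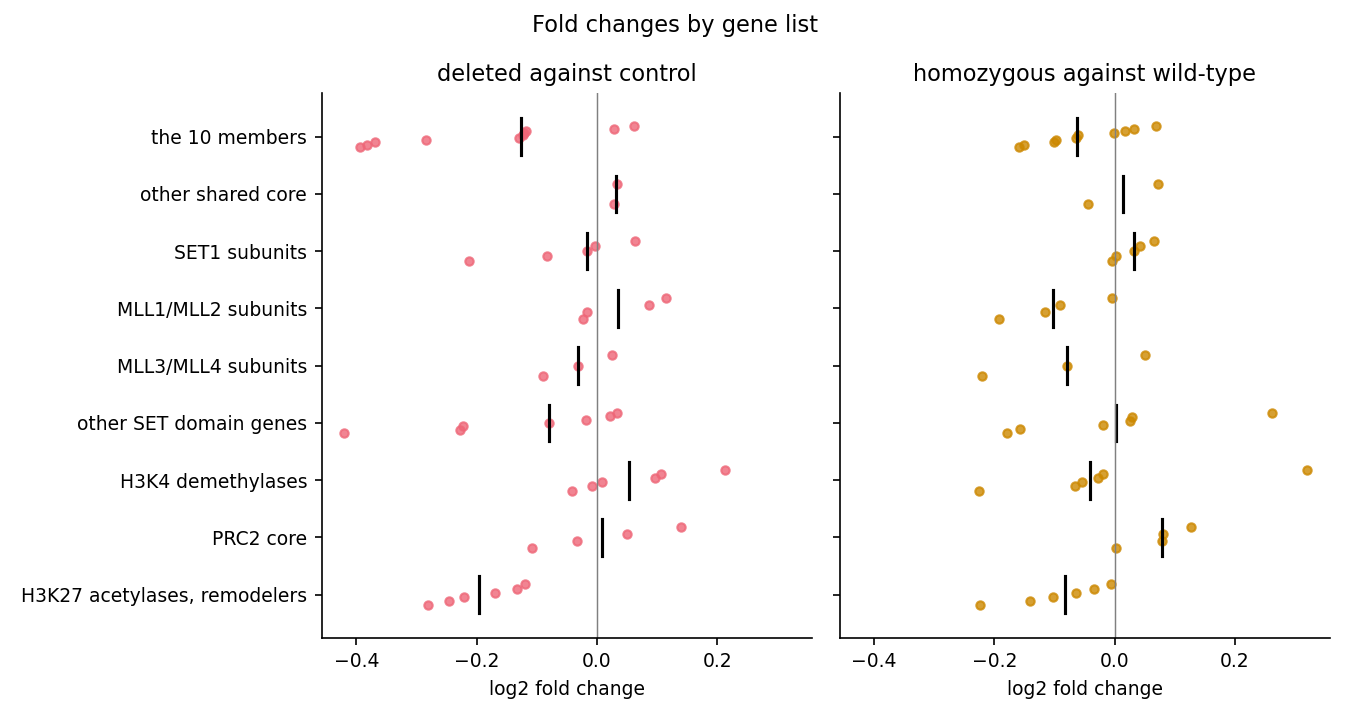
Log2 fold change of every tested gene (points) and the median (black bar) of the 10 genes and of 8 lists of partner and opposing genes, in deleted against control (left) and homozygous against wild-type libraries (right). The points of the 10 genes reach from -0.39 to 0.06 in the deletion and from -0.16 to 0.07 in the 23KRA experiment, and the acetyltransferase and remodeler list lies below 0 in both panels; no point passed the test.

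Fewer cells of a type and less RNA per cell cannot be told apart in bulk samples, and only transcript levels were measured, not the histone marks that these enzymes write or remove.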

How the data were processed

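Bulk RNA sequencing gave 14 libraries. The deposited values are raw read counts per gene, 24984 symbols in each of 2 tables, made by the authors. The submitters' processing notes name mm10 as the build and, as tools, Subread 1.5.0 with featureCounts, STAR 2.5.3, Trim Galore 0.4.3 and SAMtools 1.4.1. For the annotation, the strand setting and multi-mapping reads, details were not given in the sources used here. Deletion libraries came from 20 ng of RNA with a SMART-Seq mRNA kit and 23KRA libraries from a stranded total RNA kit with ribosomal depletion, per the labels' protocols, although the molecule field names polyA RNA. Each experiment was therefore scaled and tested within its own table, except that the interaction was fitted on the counts of both tables together, with 1 mean per group and a spread shared by all 14 libraries.

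Counts were analysed in R 4.3.3 with edgeR 4.0.16, and figures made in Python 3.11.15. Genes were kept by filterByExpr (minimum count 10), scaled by TMM factors and tested two-sided by the quasi-likelihood method, and p-values were adjusted by Benjamini-Hochberg over all genes tested, at 0.05. Residual degrees of freedom were 2 and 8 before spread was shared across genes. The script was tested on simulated data. CPM use the scaled library sizes, and levels per kilobase the exon union of GENCODE vM21 (GRCm38). GC content was found for 99.0% and 99.3% of the genes tested. Replicate numbers are not said to pair animals, so no pairing was used. P-values measure the spread between animals and preparations together. Amplified reads are not independent molecules.

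The 10 genes and all lists were chosen with earlier results of these data known. All 10 are named, with Cbx2, Rbbp5, Dpy30, Uty, the 2 genes of highest mean CPM in each partner list and any list or marker gene with an adjusted p under 0.05. Lists are described by counts and medians, with no test over a list. Alternatives were DESeq2 1.42.0 size factors and test, limma 3.58.1 voom, with and without quality weights, upper quartile scaling, other filters, a replicate block, leaving out libraries and, chosen after the data had been seen, a GC offset.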

Additional observations from a re-analysis of the deposited data

Results flagged for a closer look

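Of 56 groups of 5 libraries (28 named genes in the wild-type and homozygous animals), 5 held a library whose gap to its nearest neighbour was over 0.71 of the group's range. Chance alone flags about 1 group in 20. Setd1a was at 448.3 CPM in homozygous replicate 1, with the next library at 349.7. Kdm6b was at 154.2 CPM in wild-type replicate 4, with the next at 201.7. Uty was at 27.1 CPM in homozygous replicate 1, with the next at 44.86. Bod1l was at 341.9 CPM in homozygous replicate 2, with the next at 276.3, and Kdm5a was at 1048 CPM in the same library, with the next at 919.8. No difference between the experiments passed the test for any of these genes.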

How the results depend on the processing

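Each result under each alternative setting was counted as a value: 1173 were the same, 11 stronger, 4 weaker, 5 moved and 99 reversed. A fold change counted as the same where its direction and side of the threshold held, whatever its size. Kmt2d in the deletion, at -0.37 in the main fit and -0.0077 without control replicate 2, thus counted as the same. Counts and medians counted as the same within a set margin. Every reversed value was of a gene that did not pass. Genes called in the deletion numbered 8 with no filter, 1 with a mean of at least 5 CPM, 1 with DESeq2, 1 with limma-voom, 1 with a GC offset (chosen after the data had been seen), and 2 to 73 with 1 library left out, 11 without control replicate 1 and 73 without deleted replicate 2. With 1 library left out, 0 to 1 members were called (Kmt2a, without deleted replicate 2) and the members' median ran from -0.423 to -0.0231 in the deletion. The rank of Ash2l per kilobase in wild-type animals moved from 6 to 2 with the longest transcript. In the 23KRA experiment no gene passed in any fit that left out 1 library.

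Same-numbered libraries deviated together in the deletion (r = 0.37 over 11322 genes). With 2 libraries per group, r with the other number is fixed as the mirror image (-0.37), so comparing the numbers adds nothing there. In 23KRA r was 0.15, 0.42, -0.06, 0.22 and 0.37, where 4 of 5 libraries correlated best with their own number. These values are a hint from the data, not the design. With the replicate number as a block, 62 genes passed in the deletion, 1 of them a member (Kmt2a, -0.38, edgeR adjusted p = 0.0333), and 2 in 23KRA, neither a member. In that 23KRA fit 2 members, Kmt2b and Kdm6b, both lower, had an unadjusted p under 0.05 (edgeR). The share of all genes at that threshold was not counted with the block, so this count has no background and is not read further. With GC offset and replicate block together, 37 and 5 genes passed and no member (Kmt2a -0.35, edgeR adjusted p = 0.0817). The block changed no other call among the members.

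The reversed values, all of genes that did not pass, were as follows on the log2 scale. In the deletion, with GC offset Ash2l was -0.0158, Dpy30 was -0.0362, Uty was -0.0527 and Hcfc1 was 0.0333. With GC offset and replicate block Ash2l was -0.0159, Dpy30 was -0.0391, Uty was -0.0426 and Hcfc1 was 0.012. With 1 library left out the ranges were Kmt2b -0.544 to 0.207, Kmt2c -0.258 to 0.00544, Setd1b -1.04 to 0.702, Rbbp5 -0.0747 to 0.129, Dpy30 -0.0956 to 0.154, Uty -0.224 to 0.314, Hcfc1 -0.366 to 0.267, Ncoa6 -0.219 to 0.0307, Paxip1 -0.0847 to 0.132, Kdm5a -0.0833 to 0.0137, Kdm5b -0.067 to 0.0831, Suz12 -0.103 to 0.0378 and Eed -0.0214 to 0.287. In 23KRA, with DESeq2 size factors Suz12 was -0.00296. With upper quartile scaling Suz12 was -0.00513. With no filter Suz12 was -0.00502. With a 5 CPM filter Setd1b was 0.000698. With DESeq2 Suz12 was -0.00312. With limma-voom Setd1b was 0.0456, Hcfc1 was 0.00522 and Suz12 was -0.00689. With the replicate block Hcfc1 was 0.000501 and Suz12 was -0.000817. With GC offset Kdm6a was -0.0146, Ash2l was -0.0108, Hcfc1 was 0.000879 and Suz12 was -0.0376. With GC offset and replicate block Kdm6a was -0.0119, Ash2l was -0.0131, Hcfc1 was 0.00489 and Suz12 was -0.0371. Without wild-type replicates 2 and 3 Setd1b was 0.192, Kdm6a was -0.0184, Uty was -0.00225, Ncoa6 was 0.00832 and Suz12 was -0.0295. With limma-voom quality weights Ash2l was -0.00184, Hcfc1 was 0.00513 and Suz12 was -0.00736. With 1 library left out the ranges were Setd1b -0.201 to 0.205, Kdm6a -0.0516 to 0.115, Ash2l -0.0232 to 0.0449, Rbbp5 -0.0904 to 0.0133, Dpy30 -0.0164 to 0.17, Bod1l -0.0419 to 0.0595, Hcfc1 -0.0508 to 0.0481, Ash1l -0.00221 to 0.0531, Kdm5b -0.145 to 0.00207, Suz12 -0.0401 to 0.0365 and Crebbp -0.0814 to 0.00317. For the difference between experiments, with DESeq2 size factors Ash2l was 0.00534. With upper quartile scaling Ash2l was 0.0186. With no filter Ash2l was 0.00813. With DESeq2 Ash2l was 0.00532. With limma-voom Kmt2b was -0.0301. With 1 library left out the ranges were Kmt2b -0.402 to 0.345, Kmt2d -0.574 to 0.0705, Setd1b -1.05 to 0.68, Kdm6b -0.335 to 0.0638 and Ash2l -0.0344 to 0.0361. The causes were not tested.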
